A study of Homo sapiens with 8 samples.

Results

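The genes examined are 10 members of the TGF-beta pathway, namely the ligands *TGFB1* and *TGFB2*, the receptors *TGFBR1* and *TGFBR2*, the signal transducers *SMAD2*, *SMAD3* and *SMAD4*, the inhibitory *SMAD7*, and the corepressors *SKI* and *SKIL*. They were listed by name, out of 20056 protein-coding genes of the reference, and every H3K27ac peak in each gene and 20 kb either side was taken. The measurements come from MIA PaCa-2, a human cell line from a pancreatic carcinoma. MP2_HDAC1_OE is a stable line in which CRISPR activation with a guide against *HDAC1* raises that gene, and MP2_NTC carries a non-targeting guide. Both lines also carry the activator proteins of the lentiMPHv2 and lentiSAMv2 plasmids, and each condition is represented by a single stable line. Each line had 2 H3K27ac ChIP-sequencing samples and 2 control samples without antibody, and the deposited data are 1 peak list per line that joins both samples. No spread between cultures can therefore be given for any value, and no test between the lines was possible. The depth of the samples is unknown, so a gene without a listed peak may still carry the mark below the level that the lists retain.

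TGF-beta ligands are secreted in a latent form and, once released, bind TGFBR2, which recruits and phosphorylates TGFBR1. The active receptor phosphorylates SMAD2 and SMAD3, which enter the nucleus together with SMAD4 and regulate genes. SMAD7 blocks the receptor in a feedback loop, and SKI and SKIL (also called SnoN) bind SMAD complexes and recruit corepressors that include histone deacetylases. In pancreatic carcinoma *SMAD4* is well known as a tumor suppressor that is often lost. H3K27ac is an acetyl mark on histone H3 that is found at active promoters and enhancers.

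The windows of the 10 genes held 29 peaks of MP2_HDAC1_OE, whose list has 25045, and 28 peaks of MP2_NTC, whose list has 22569. Peaks of both lists were merged into a region wherever they shared at least 1 bp. The genes held 23 of the 18678 merged regions. Each peak carries a signal value from the authors, and how signals of different lists relate is not stated. Signals are given as listed, and lines are compared by rank, the share of a line's own list with a lower signal. A rank of "above 90%" thus means that 90% of that line's peaks had a lower signal. In the window of *HDAC1* itself the strongest peaks ranked above 93.9% in MP2_HDAC1_OE and above 76.8% in MP2_NTC. The label of an epithelial carcinoma line was checked at 12 genes, and 10 of them had a region. Among these were the epithelial genes *KRT8*, *KRT18*, *KRT19*, *EPCAM*, *CDH1* and *MUC1*, the mesenchymal genes *VIM* and *ZEB1*, and *SOX9*, while *CDH2* and *GATA6* had 0. Of all protein-coding genes 36.9% had no region, so a region in the window is a weak check of the label. The strongest MP2_NTC peaks at *KRT8* and *KRT18* had the same signal (68.9), so these genes may share a peak. The genes with a start window under peaks of both lines were *VIM*, *ZEB1* and *MUC1*, that of *KRT8* was under none, and *KRT18*, *KRT19*, *EPCAM* and *CDH1* have no start window in the table, so epithelial and mesenchymal genes were both marked. Of 6 markers of other cell types (*PTPRC*, *CD3E*, *PECAM1*, *ALB*, *GCG* and *INS*), only *INS* had regions, which were 3 of MP2_HDAC1_OE alone and none at its listed start.

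The promoters of these genes show where the peaks lie. RefSeq (GRCh38.p14) lists 24 start windows, from 250 bases before to 50 bases after a start, for 9 of the 10 genes, and *SKI* has none in the table. Peaks of both lines covered part of a start window of 3 genes, *SMAD2*, *SMAD4* and *SKIL*. Over all protein-coding genes with a start window the share was 27.9%. Only *SMAD3* had a start window under a peak of MP2_HDAC1_OE alone (8.70% of all genes), and only *TGFBR1* under a peak of MP2_NTC alone (8.44% of all genes). No start window of *TGFB1*, *TGFB2*, *TGFBR2* or *SMAD7* was under a peak. The 250 bases before the start are printed for the genes whose promoters were acetylated in both lines, for *SMAD3*, and for both ligands, which had no peak. Capitals mark matches on either strand to short motifs, GGCGC and GGCCG (GC-rich SMAD elements), CAGACA (the SMAD box of many TGF-beta targets) and TGANTCA (AP-1), of which GGCGC and GGCCG can overlap.
SKIL (chr3:170357465-170357714, plus strand): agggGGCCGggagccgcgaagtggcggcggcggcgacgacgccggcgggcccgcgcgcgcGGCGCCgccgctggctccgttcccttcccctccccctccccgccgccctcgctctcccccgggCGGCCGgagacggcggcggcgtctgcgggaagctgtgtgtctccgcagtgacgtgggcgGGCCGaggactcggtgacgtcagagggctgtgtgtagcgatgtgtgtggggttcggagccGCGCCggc
SMAD2 (chr18:47930873-47931122, minus strand): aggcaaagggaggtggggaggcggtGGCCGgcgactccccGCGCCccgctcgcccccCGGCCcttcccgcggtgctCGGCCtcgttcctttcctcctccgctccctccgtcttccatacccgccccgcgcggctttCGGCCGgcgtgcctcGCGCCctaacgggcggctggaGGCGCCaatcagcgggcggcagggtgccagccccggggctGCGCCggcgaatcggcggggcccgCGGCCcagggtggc
SMAD4 (chr18:51029963-51030212, plus strand): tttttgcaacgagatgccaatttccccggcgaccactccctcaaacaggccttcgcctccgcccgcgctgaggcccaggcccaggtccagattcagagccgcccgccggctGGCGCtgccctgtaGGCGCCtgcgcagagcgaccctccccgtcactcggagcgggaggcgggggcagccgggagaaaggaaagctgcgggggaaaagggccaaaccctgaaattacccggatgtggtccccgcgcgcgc
SMAD3 (chr15:67065352-67065601, plus strand): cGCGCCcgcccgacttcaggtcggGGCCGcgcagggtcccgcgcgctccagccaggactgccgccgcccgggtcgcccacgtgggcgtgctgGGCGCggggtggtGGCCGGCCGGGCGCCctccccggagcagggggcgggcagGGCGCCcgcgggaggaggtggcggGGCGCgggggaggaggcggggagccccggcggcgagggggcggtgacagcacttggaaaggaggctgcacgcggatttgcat
TGFB1 (chr19:41353923-41354172, minus strand): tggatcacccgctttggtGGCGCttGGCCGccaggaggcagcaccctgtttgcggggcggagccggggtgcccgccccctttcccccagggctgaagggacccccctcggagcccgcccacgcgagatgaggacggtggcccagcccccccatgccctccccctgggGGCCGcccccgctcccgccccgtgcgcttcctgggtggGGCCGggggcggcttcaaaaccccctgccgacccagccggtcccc
TGFB2 (chr1:218345086-218345335, plus strand): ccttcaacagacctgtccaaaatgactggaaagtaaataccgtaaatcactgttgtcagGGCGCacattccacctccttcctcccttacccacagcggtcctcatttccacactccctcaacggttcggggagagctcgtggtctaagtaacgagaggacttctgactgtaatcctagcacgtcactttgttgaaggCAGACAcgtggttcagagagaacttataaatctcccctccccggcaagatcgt

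In these stretches MP2_HDAC1_OE peaks covered 250 of the 250 bases at *SKIL*, *SMAD2* and *SMAD3*, and 26 at *SMAD4*. MP2_NTC peaks covered 97 bases at *SKIL*, 250 at *SMAD2* and at *SMAD4*, and 0 at *SMAD3*. The 9 member windows under a peak had a GC content of 66.7% to 84.0%, against 41.7% to 77.3% in the 15 windows with no peak and a median of 58.7% over all 35116 windows of the table. GGCGC or GGCCG was found in all 9 windows under a peak and in 9 of the 15 without, and 60.7% of all windows hold either. CAGACA was in 4 of the 24 windows (16.9% of all windows), and TGANTCA was in 2 of 24 (7.71% of all windows). Windows of 1 gene can overlap and are not independent. None of the 9 windows under a peak held CAGACA or TGANTCA. The *TGFB2* promoter is shown with its CAGACA match, and *TGFB1* is shown as a GC-rich promoter (77.3% in its window) without a peak. A match is a string of letters and not a binding site.

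**Figure D1:**
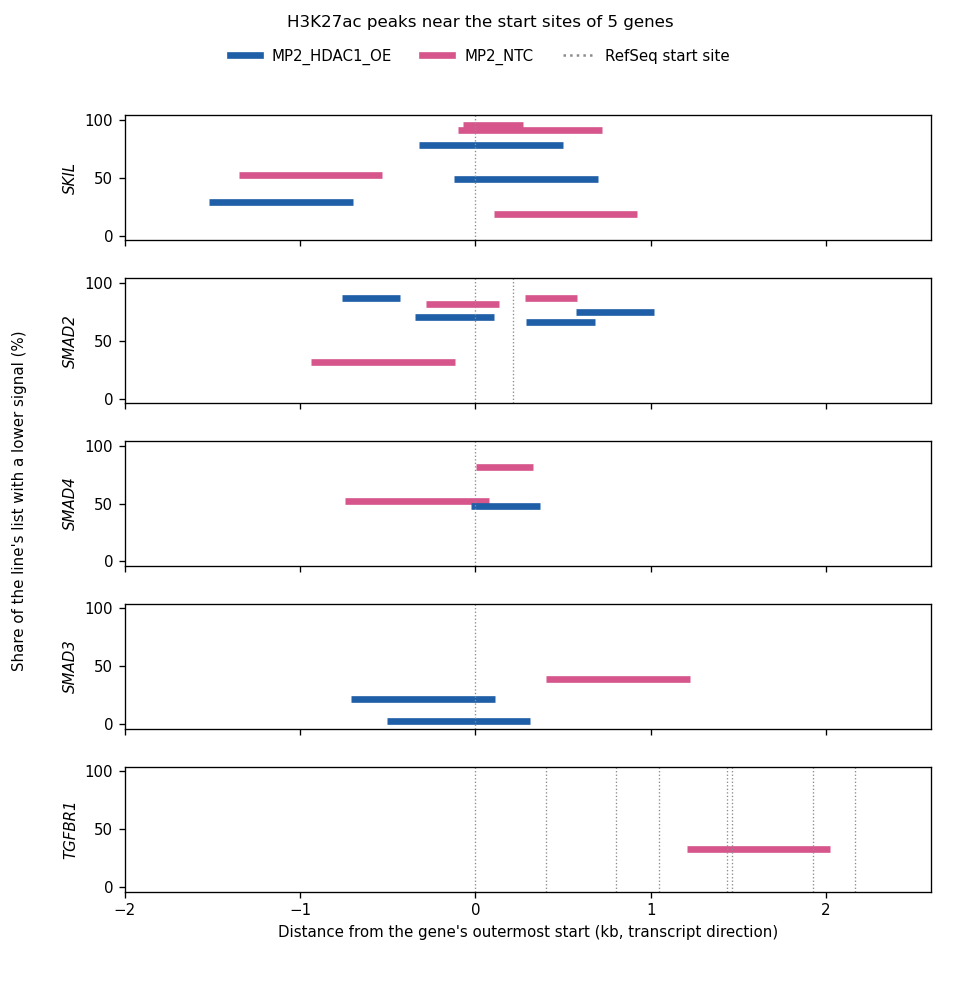
H3K27ac peaks near the starts of 5 genes, with the distance from the outermost RefSeq start in kb on the x axis and, on the y axis, the share of the line's list with a lower signal in percent. Each bar is 1 peak at its true width, blue for MP2_HDAC1_OE and pink for MP2_NTC, and dotted lines are RefSeq start sites; at SMAD4 the highest pink bar stands at 81.8% and the blue bar at 47.9%, and at SMAD3 the bars of the lines do not overlap.

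*SMAD4*, the shared partner of all receptor-activated SMADs, had a single region, which was at its start and was listed in both lines. The single MP2_HDAC1_OE peak was at chr18:51030187-51030583, and it had the signal 45.3 and a rank above 47.9%. MP2_NTC had a peak at chr18:51030215-51030542 with the signal 75.7 and a rank above 81.8%. A wider MP2_NTC peak at chr18:51029471-51030290 had the signal 50.7 and a rank above 52.4%. The strongest summits of the lines were 33 bp apart, so these ranks describe the same site. The rank was lower in MP2_HDAC1_OE, by a difference of -33.9 points (MP2_HDAC1_OE minus MP2_NTC, as in all differences here), and 3.63% of all protein-coding genes with peaks of both lines had a lower difference. MP2_HDAC1_OE peaks covered 397 bp of the region, while MP2_NTC peaks covered 1072 bp and extended upstream over the end of the neighboring lncRNA gene *LOC107985152*.

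*SKIL* is a corepressor of SMADs and also a known target of TGF-beta signaling. It had 2 shared regions, both at its start, and in both the rank was lower in MP2_HDAC1_OE. In the region over the start, the strongest MP2_HDAC1_OE peak (chr3:170357396-170358215) ranked above 78.2%, with the signal 65.9. The strongest MP2_NTC peak (chr3:170357642-170357985) ranked above 95.6%, with the signal 108, and its summit was 17 bp away. The difference was -17.4 points. In the upstream region the MP2_HDAC1_OE peak (chr3:170356195-170357014) ranked above 29.0% and the MP2_NTC peak (chr3:170356365-170357184) above 52.2%, a difference of -23.2 points. The lines covered nearly the same length, 1839 bp in MP2_HDAC1_OE and 1841 bp in MP2_NTC.

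*SMAD2*, which is phosphorylated by the active receptor, also had 2 shared regions at its start, and the differences of their strongest peaks had opposite signs. In the region over the outermost start, the strongest peak of MP2_HDAC1_OE (chr18:47931301-47931632) ranked above 86.5% and the strongest of MP2_NTC in the same region (chr18:47930739-47931154) above 81.6%, a difference of 4.85 points. Their summits were 467 bp apart, so the strongest peaks of the region are not the same site. The MP2_HDAC1_OE peak nearest to that MP2_NTC summit (chr18:47930767-47931219) ranked above 70.3%. Conversely, the MP2_NTC peak nearest to the strongest MP2_HDAC1_OE summit (chr18:47930990-47931809) ranked above 31.6%. In the region inside the gene the strongest MP2_HDAC1_OE peak (chr18:47929855-47930299) had the signal 62.8. The MP2_NTC peak (chr18:47930292-47930587) had the signal 83.7 and a rank above 86.9%, a difference in rank of -11.9 points. These summits were 334 bp apart, and the MP2_HDAC1_OE peak nearest to the MP2_NTC summit (chr18:47930187-47930585) ranked above 66.0%. Over the whole window the strongest peaks of the lines differed by -0.373 points, and this difference had the opposite sign with summed signal (12.3 points), so no direction can be given for *SMAD2*. *SMAD2*, *SMAD4* and *SMAD7* all lie on the long arm of chromosome 18, a chromosome where 30.9% of 272 regions were of MP2_HDAC1_OE alone and 19.1% of MP2_NTC alone.

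*SMAD3*, the other receptor-activated SMAD of the pathway, had 6 regions and 0 of them were shared, with 3 in each line. Of the 951 protein-coding genes with 6 or more regions, 14 (1.47%) had none shared. This pattern was not tested. All 10 peaks of *SMAD3* had the width of 820 bp that is the median of both lists, and none ranked above the middle of its list. At the start, MP2_HDAC1_OE had peaks at chr15:67064895-67065714 (signal 30.1, above 21.4%) and chr15:67065097-67065916 (signal 13.8, above 2.76%). The MP2_NTC peak (chr15:67066006-67066825, signal 43.3, above 38.9%) began 404 bp past the start site and was separated from the MP2_HDAC1_OE region by only 89 bp. The call of separate regions at the start therefore rests on this short gap.

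Further inside *SMAD3* the lines were farther apart. MP2_NTC alone had a peak at chr15:67090822-67091641 (above 37.3%) and 2 overlapping peaks around chr15:67149470-67150494 (the stronger above 22.4%). MP2_HDAC1_OE alone had 3 overlapping peaks at chr15:67102791-67104028, the strongest with a signal of 42.7 and a rank above 42.4%, and a weak peak at chr15:67163112-67163931 (above 8.75%). The nearest peak of the other line was 11149 to 12617 bp from these 4 regions. RefSeq lists 5 start windows for *SMAD3*, and the 4 inner ones had no peak in either line.

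*SKI*, the other SMAD corepressor, had 8 regions, the most of the 10 genes, with 3 shared, 2 of MP2_HDAC1_OE alone and 3 of MP2_NTC alone. Its strongest region lay outside the lower-coordinate end of the gene at chr1:2226671-2227688, and it was nearly equal in rank. The strongest peak there had the signal 80.2 in MP2_HDAC1_OE (above 88.7%) and 91.3 in MP2_NTC (above 90.6%), a difference of -1.83 points. A shared region inside the gene (chr1:2300468-2302032) ranked above 38.2% and 38.1%, although its summits were 745 bp apart and the peaks barely met.

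Around the other end of *SKI* the lines differed more in place than in number. MP2_NTC alone had a peak at chr1:2311473-2312292 (above 41.2%), and MP2_HDAC1_OE alone had peaks at chr1:2313843-2314225 (above 44.8%) and chr1:2314226-2314562 (above 63.0%). These MP2_HDAC1_OE peaks adjoin without a base between them, and they count as separate regions because merging required a shared base. The third shared region, chr1:2315866-2317070, ranked above 61.2% in MP2_HDAC1_OE and above 78.3% in MP2_NTC, a difference of -17.1 points. Its strongest summits were 222 bp apart. The MP2_NTC peak nearest to the strongest MP2_HDAC1_OE summit (chr1:2316251-2317070) ranked above 60.7%. The MP2_HDAC1_OE peak nearest to the strongest MP2_NTC summit (chr1:2315866-2316685) ranked above 58.7%. This region lies within the lncRNA gene *LOC124903824*, outside *SKI*. The remaining regions were of MP2_NTC alone, at chr1:2292336-2293155 inside the gene (above 21.4%) and at chr1:2212026-2213060 by the end of *FAAP20* (above 55.8%).

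**Figure D2:**
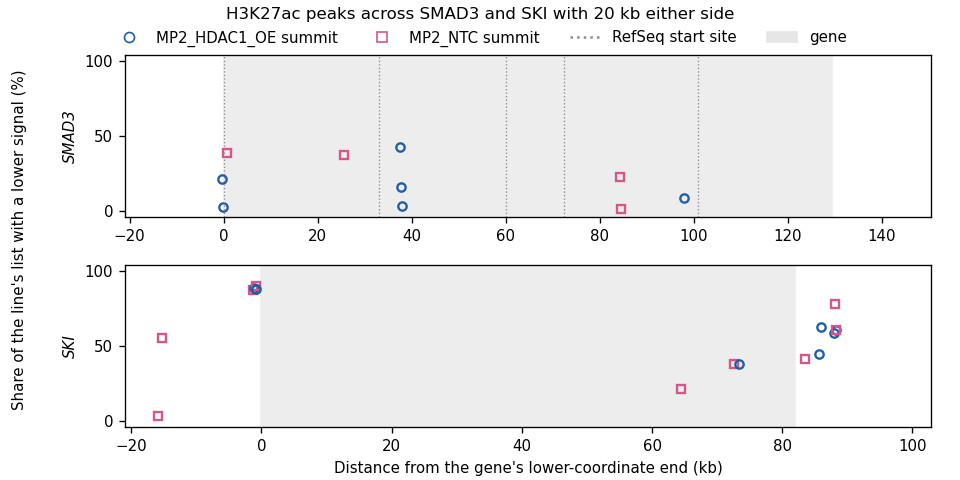
Peak summits across SMAD3 and SKI with 20 kb either side, with the distance from the lower-coordinate gene end in kb on the x axis and the share of the line's list with a lower signal in percent on the y axis. Circles are MP2_HDAC1_OE, squares MP2_NTC, the grey band is the gene and dotted lines are RefSeq start sites (none listed for SKI); all SMAD3 summits stand below 50%, while SKI has its highest pair near 90% just outside the gene.

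Of the receptors, *TGFBR1*, the type I receptor that phosphorylates SMADs, had a single region, listed in MP2_NTC alone (chr9:99104853-99105672, signal 40.4, above 33.2% of its list). It lay over 4 of the 8 RefSeq start windows of the gene, and the nearest MP2_HDAC1_OE peak was 116238 bp from it. *TGFBR2*, the type II receptor that binds the ligand, had 0 regions. The peak nearest to the gene was 837934 bp away in MP2_HDAC1_OE and 837955 bp away in MP2_NTC, so that the absence in the lists extends over a wide stretch on both sides of this receptor.

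Neither ligand had a peak of its own. *TGFB2* had 0 regions, and the nearest peak lay 59495 bp from the gene in MP2_HDAC1_OE and 713897 bp in MP2_NTC. *TGFB1*, the main TGF-beta of most tissues, had 3 regions in its window, but all of them were outside the gene, and the nearest began 9166 bp from its start. The strongest of these were at the ends of neighboring genes. A region at the adjoining ends of *B9D2* and *TMEM91* (chr19:41363088-41364847) ranked above 96.4% in MP2_NTC and 0.638 points higher in MP2_HDAC1_OE, with summits 18 bp apart. A region at *CCDC97* (chr19:41310058-41311012) ranked above 98.0% in MP2_HDAC1_OE and above 69.0% in MP2_NTC, a difference of 29.0 points. The last, inside *TMEM91*, was a peak of MP2_HDAC1_OE alone (chr19:41367777-41368596, above 30.5%). The high rank of *TGFB1* in the plot of strongest peaks is therefore that of its neighbors.

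*SMAD7*, the feedback inhibitor, had 0 regions as well. A peak of MP2_NTC lay just outside the window, 24107 bp from the gene, and the nearest of MP2_HDAC1_OE was 371756 bp away.

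**Figure D3:**
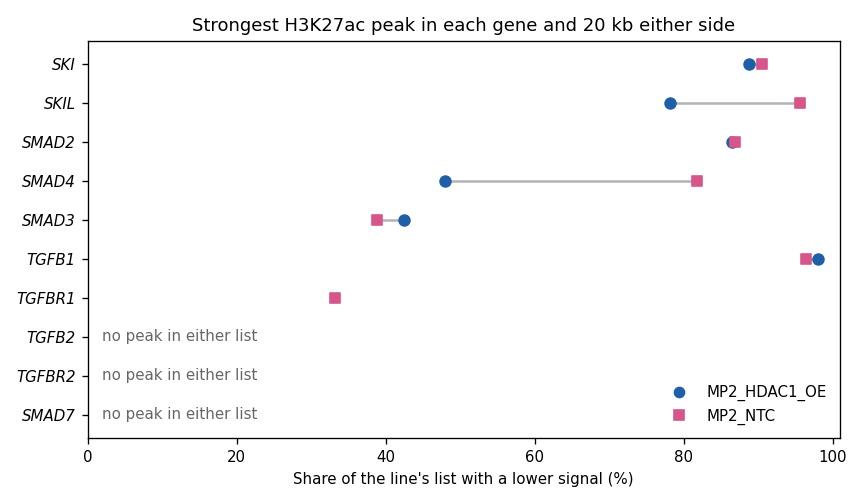
Rank of the strongest H3K27ac peak in each gene and 20 kb either side, as the share of the line's list with a lower signal in percent on the x axis, with a circle for MP2_HDAC1_OE and a square for MP2_NTC. SMAD4 has the longest line between its symbols (47.9% and 81.8%), SKIL the next (78.2% and 95.6%), TGFBR1 has a square alone, and 3 genes have no peak in either list.

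The order of the genes by their strongest peak, with the neighbors of *TGFB1* left aside, was *SKI*, *SMAD2*, *SKIL*, *SMAD4* and *SMAD3* in MP2_HDAC1_OE. In MP2_NTC it was *SKIL*, *SKI*, *SMAD2*, *SMAD4*, *SMAD3* and *TGFBR1*. Without replicates it cannot be said which neighbors in these orders differ. The medians over all protein-coding genes with a peak were ranks above 81.3% in MP2_HDAC1_OE and above 79.4% in MP2_NTC. Thus *SMAD4* stood above this median in MP2_NTC and below it in MP2_HDAC1_OE, *SKIL* did so as well, and *SMAD3* and *TGFBR1* stood below it wherever they had a peak.

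Counted together, 10 of the 23 regions (43.5%) were shared, 6 (26.1%) were of MP2_HDAC1_OE alone and 7 (30.4%) of MP2_NTC alone. Among the 16200 regions in the windows of all protein-coding genes, 52.9% were shared, 26.5% were of MP2_HDAC1_OE alone and 20.6% of MP2_NTC alone. With so few regions these shares are close to the background. Of single peaks, 20 of 29 in MP2_HDAC1_OE and 19 of 28 in MP2_NTC overlapped a peak of the other line, against 67.4% and 73.8% of the whole lists. At an end of the gene, from 2 kb outside to 1 kb inside, lay 9 of the 23 regions (39.1%), against 41.5% over all pairs of a protein-coding gene and a region in its window. Of these 9 regions 6 were shared, and they belonged to *SMAD2*, *SMAD4*, *SKI* and *SKIL*. Of the 7 regions inside a gene but beyond these end windows 1 was shared, and of the 7 outside 3 were shared. The 7 inside include 4 of *SMAD3* and the *TGFBR1* region, which lies over 4 inner start windows of that gene. Shares by place were not computed over all genes, so these counts are no result about the 10 genes. Among these 23, regions of a single line had a median rank above 36.5% in MP2_HDAC1_OE and above 37.3% in MP2_NTC, while shared regions had medians of 76.6% and 81.7%. A region takes the rank of its strongest peak in a line. These medians were not computed over all regions, so no trait of the 10 genes can be read from them. Of the 10 genes, 3 had no region (*TGFB2*, *TGFBR2* and *SMAD7*), and 36.9% of all protein-coding genes had none.

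**Figure D4:**
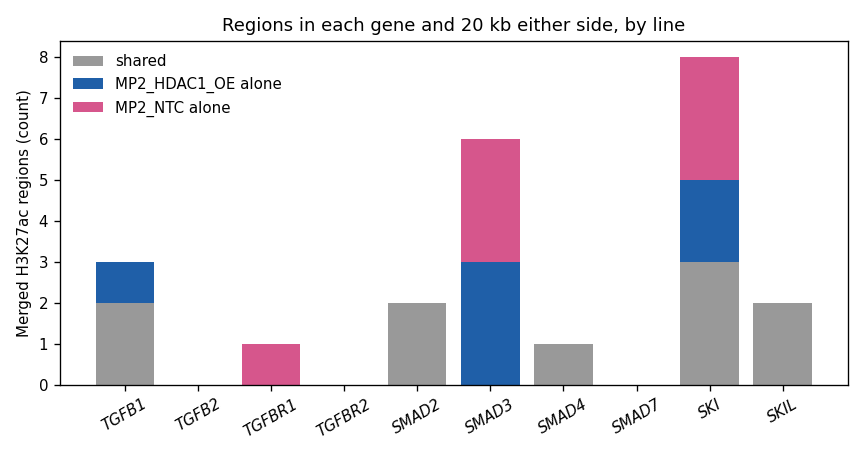
Number of merged H3K27ac regions on the y axis for each of the 10 genes with 20 kb either side. Grey is shared, blue MP2_HDAC1_OE alone and pink MP2_NTC alone; SMAD2, SMAD4 and SKIL are grey throughout, SMAD3 has 3 blue and 3 pink regions and no grey, and SKI has 8 regions.

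A difference of at least 20 points between the strongest peaks was called. The lists differ in length, which shifts ranks. When the longer list was shortened to the 22569 peaks with the highest signal, the difference was -39.6 points at *SMAD4* and -19.8 at *SKIL*. The calls did not change. Shortening can only lower the ranks of MP2_HDAC1_OE, so a call of higher in MP2_NTC could not be lost this way. Of the 6 genes with peaks of both lines, 0 were called higher in MP2_HDAC1_OE, against 13.9% of all such protein-coding genes, and 1 (*SMAD4*) was called higher in MP2_NTC, against 9.74%. The median difference was -1.10 points over the 6 genes and 1.13 points over all genes. At *TGFB1*, *SMAD2* and *SMAD3* the strongest peaks of the lines lie in different regions, so their differences do not compare the same site. Compared region by region, 1 of the 10 shared regions was called higher in MP2_HDAC1_OE (the one at *CCDC97*), against 19.0% of all shared regions in the windows of protein-coding genes. In the other direction 2 of 10 were called (at *SMAD4* and upstream of *SKIL*), against 14.3%. A share of this size in so few regions is near the background, and it is no result about the list as a whole.

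**Figure D5:**
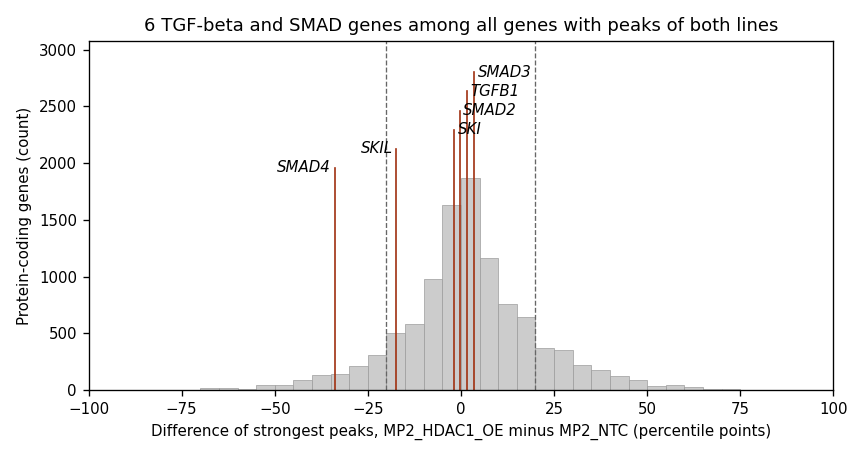
Histogram of the difference between the strongest peaks of the lines, MP2_HDAC1_OE minus MP2_NTC in percentile points on the x axis. The count of protein-coding genes is on the y axis. At TGFB1, SMAD2 and SMAD3 the strongest peaks of the lines lie in different regions. Red lines mark the 6 members with peaks of both lines and dashed lines the limits of 20 points; SMAD4 at -33.9 is the only member beyond them.

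The rest of the pathway was described by 93 genes in 4 lists. Of these 38 had no region, 5 had peaks of MP2_HDAC1_OE alone, 4 of MP2_NTC alone and 46 of both. Of the 46, 11 were called higher in MP2_HDAC1_OE and 4 higher in MP2_NTC, against the same 13.9% and 9.74% of all genes, with a median difference of 7.42 points. Windows of 20 kb hold neighbors, so a peak need not belong to the gene named. The genes with peaks of MP2_HDAC1_OE alone were the stress cytokine *GDF15*, the BMP receptor *BMPR2*, the EMT transcription factor *SNAI1*, the collagen gene *COL1A2* and the integrin *ITGB5*, with ranks from above 23.6% (*SNAI1*) to above 73.3% (*ITGB5*). Those with peaks of MP2_NTC alone were *BMP7*, the receptors *ACVR2B* and *BMPR1B*, and *ID2*, an inhibitor of helix-loop-helix factors, with ranks from above 24.5% (*ACVR2B*) to above 68.2% (*BMP7*).

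The calls by list are set against the same shares of all protein-coding genes, 13.9% higher in MP2_HDAC1_OE and 9.74% higher in MP2_NTC. Each list has few genes with peaks of both lines, so these counts are no result about a list. Among the 23 genes for ligands and their latency, 3 of the 10 with peaks of both lines were called higher in MP2_HDAC1_OE and 0 in MP2_NTC. The ligand *TGFB3* was one of them, with ranks above 71.1% and 35.4%, and its start window was under an MP2_HDAC1_OE peak alone. Among the 13 receptors and co-receptors, 1 of 6 was called in each direction, and *CD109*, a co-receptor that dampens signaling, ranked above 54.5% in MP2_HDAC1_OE and above 85.7% in MP2_NTC. Among the 27 other SMADs and regulators, 3 of 19 were called in each direction. *TRIM33*, which ubiquitinates SMAD4, ranked above 48.3% and 82.2% (-33.8 points), and *TAB1*, an activator of the kinase TAK1, ranked above 20.4% and 74.2% (-53.8 points). Among the 30 known targets, 4 of 11 were called higher in MP2_HDAC1_OE and 0 in MP2_NTC, with *COL7A1* at 86.2% and 41.3% and *JUNB* at 93.7% and 60.6%. In *COL7A1* these ranks come from different regions, since it had no shared region. Neither *COL7A1* nor *JUNB* had a start window under a peak, and the window of *JUNB* held 9 regions.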

How the data were processed

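H3K27ac ChIP-sequencing was measured in MP2_HDAC1_OE and MP2_NTC, and 2 lists of peaks were used. The authors followed ENCODE protocols. The submitters' processing notes name hg38, BWA 0.7.12 and Picard 1.88, and the peak caller is not given in the sources used here. The deposited signal of a peak is a positive value of unknown scaling between the lists. The deposited score and the statistic beside it were not used. Signal was ranked within each list. Gene positions and start sites came from RefSeq tables of GRCh38.p14. Regions were merged at an overlap of 1 bp. The gene table has no strand, so the gene-end window (2 kb outside, 1 kb inside) was applied at either end. The 10 members and all lists were chosen with earlier results of these data known. Named pathway genes are those with peaks of 1 line alone and the 3 largest differences in each direction. No test was made, since each list joins both samples. Alternatives covered the merging gap (500 bp), the top 75% of peaks, equal list lengths (for ranks too), other windows, summed signal and a log2 ratio. Python 3.11.15, numpy 2.4.6, pandas 2.3.3, biopython 1.88 and matplotlib 3.10.9 were used, and the methods were tested on simulated data.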

Additional observations from a re-analysis of the deposited data

How the results depend on the processing

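Over 14 results, 68 of 75 alternative values stayed on the same side of the call or within 1.5 times the reported count. No called value changed sign, but 3 uncalled ones did, *SMAD2* with summed signal (12.3 points) and *SMAD3* (3.55 as reported) with peaks at gene ends alone (-17.4) and with ranks in lists of equal length (-2.77). Regions of MP2_HDAC1_OE alone numbered 10 with a window of 50 kb. Genes called higher in MP2_NTC numbered 2 with summed signal and 2 with a log2 ratio (a limit of 0.5), because *SKIL* joined *SMAD4* with values of -29.4 points and -0.65 on the log2 scale. Ranks in lists of equal length and the strongest shared region were alternatives chosen after seeing the data. In the latter 1 gene was called higher in MP2_HDAC1_OE, through the region at *CCDC97* by *TGFB1*. *SMAD4* stayed called in all 7 of its alternatives, but several of these could not change its value. Its only region is shared and lies at its start. Other windows, peaks at gene ends alone and the strongest shared region therefore had to return -33.9 points. The remaining alternatives gave -34.0 points with summed signal, -39.6 with ranks in lists of equal length and -0.68 on the log2 scale. Lists of equal length can only lower the ranks of MP2_HDAC1_OE, so the call of *SMAD4* could not be lost there. Values fixed in these ways are also counted among the 68. With peaks merged across gaps of up to 500 bp, shared regions numbered 9 and regions of MP2_HDAC1_OE alone numbered 4. The regions at the *SMAD3* start then became 1 shared region. No paired analysis was possible because both samples of a line were joined into 1 list, and no replicate could be left out. The lists hold no reads, so depth sets an unknown limit on weak peaks.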
